A study of Arabidopsis thaliana with 12 samples.

Results

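The difference between genotypes in the response of Arabidopsis thaliana shoots to iron was measured by RNA sequencing. For each gene, the iron effect is the log2 ratio of its level on iron-deficient over iron-sufficient medium, and the interaction is the iron effect in clf minus the iron effect in wild type. A positive interaction therefore means that a gene's iron effect lay higher, or less far down, in clf than in wild type. All 12 of the 12 libraries entered this comparison, in 4 groups of 3. The groups were clf on deficient medium, clf on sufficient medium, wild type (Col) on deficient medium and wild type on sufficient medium. Seedlings had 12 days on B5 medium and then 3 days with or without iron, in days of 16 h light and 8 h dark kept at 22 °C. No other treatment is named, and which clf allele was used is not stated. No source says that the libraries of a group were separate cultures. The p-values therefore reflect the spread among the libraries deposited, part of which may be technical.

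CLF (CURLY LEAF) is the catalytic subunit of a Polycomb repressive complex 2, which places the repressive mark H3K27me3 on histone H3, and its relative SWN (SWINGER) acts in part redundantly with it. Plants short of iron switch on a cascade of bHLH transcription factors, which raise genes for iron uptake, chelation and long-distance transport, and they lower ferritins and other genes for proteins that store or carry iron. The shoot also signals its iron status to the root, in part through the phloem transporter OPT3.

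CLF itself had 3.28, 4.24 and 5.40 CPM, the gene's count scaled to the library's size by TMM, in clf on deficient medium and 4.65, 3.09 and 5.35 CPM in clf on sufficient medium. It had 15.2, 14.6 and 17.1 CPM in wild type on deficient medium and 13.1, 15.8 and 14.2 CPM in wild type on sufficient medium, so both clf groups lay below both wild-type groups. Its interaction was -0.14 (SE 0.31, edgeR adjusted p = 0.968), and that of SWN was -0.18 (SE 0.17, edgeR adjusted p = 0.88). The titles and source names call the tissue shoot, whereas its tissue entry and the extraction text say root. The summed level of 13 leaf markers was 47850 to 59477 CPM in clf on deficient medium, 62276 to 71301 CPM in clf on sufficient medium, 51154 to 58815 CPM in wild type on deficient medium and 64164 to 70812 CPM in wild type on sufficient medium. The 17 root markers summed to 337 to 433, 427 to 640, 452 to 585 and 496 to 767 CPM in the same 4 groups, far below the leaf markers. Total counts ran from 16092041 to 29400813 per library, and all 6 deficient libraries were deeper than every sufficient one. In 4 libraries the evening clock gene TOC1 was at 30.2 to 59.6 CPM, against 9.44 to 13.0 CPM in the other 8. These 4 libraries are clf deficient 3, clf sufficient 3, wild type deficient 2 and wild type sufficient 3, 1 in each group, and values without them are given below.

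One gene passed the test for the interaction. It was ERD5 (EARLY RESPONSIVE TO DEHYDRATION 5, AT3G30775), the mitochondrial proline dehydrogenase that starts proline breakdown, on the minus strand of chromosome 3 from 12448636 to 12451556 in TAIR10.1. That is 1 of 19148 genes tested (0.00522%) with edgeR's quasi-likelihood test and Benjamini-Hochberg adjustment over all of them, and 0 genes (0.0%) passed with a negative interaction. At an unadjusted p under 0.05, 1416 genes (7.4%) passed, 657 with a positive (3.43%) and 759 with a negative interaction (3.96%). A share of 0.05 would pass this threshold by chance where no gene has an interaction. DESeq2 called 56 genes with a positive and 38 with a negative interaction, of 19689 with an adjusted p (0.284% and 0.193%).

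ERD5 had 295, 311 and 359 CPM in clf on deficient medium and 274, 300.0 and 354 CPM in clf on sufficient medium. In wild type it had 53.7, 66.3 and 69.1 CPM on deficient medium, against 278, 352 and 322 CPM on sufficient medium. The 3 wild-type deficient libraries stood far below the other 9, whose ranges overlapped. The iron effect was 0.06 in clf (SE 0.14, edgeR adjusted p = 0.924) and -2.33 in wild type (SE 0.15, edgeR adjusted p = 9.63e-06), which gives an interaction of 2.39 (SE 0.20, edgeR adjusted p = 0.00357). When each library was left out in turn, the interaction ran from 2.28 to 2.50 and passed the test every time. Between genotypes ERD5 was higher in clf on deficient medium (2.35, SE 0.15, edgeR adjusted p = 1.78e-05), while on sufficient medium the difference was -0.04 (edgeR adjusted p = 0.923). Over all genes 4.01% were higher and 2.46% lower in clf on deficient medium, and 3.59% higher and 1.32% lower on sufficient medium. Of the 7 proline genes tested, ERD5 was the single one called, and 0 genes of the other lists described below passed. P5CS1, which makes the first step of proline synthesis, had an interaction of -0.78, the transporters PROT2 and PROT1 -0.55 and -0.28, and P5CR, the last step of synthesis, 0.21. These were uneven over libraries: P5CS1 was at -0.20 without wild type deficient 1, PROT2 at -0.33 without clf deficient 3, PROT1 at -0.17 without clf sufficient 1 and P5CR at 0.11 without wild type sufficient 1.

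ERD5 is known for regulation by the bZIP factors of group S1 through the motif ACTCAT, and the 250 bases before its annotated start are shown for that reason beside those of 3 genes described next, KMD1, SIP2 and AT1G67750. Sequences are from the TAIR10.1 assembly (RefSeq), 5′ to 3′ on the gene's strand, with capitals for ACTCAT or its reverse complement ATGAGT and for the G-box CACGTG.
ERD5, chr3:12451557-12451806, minus strand: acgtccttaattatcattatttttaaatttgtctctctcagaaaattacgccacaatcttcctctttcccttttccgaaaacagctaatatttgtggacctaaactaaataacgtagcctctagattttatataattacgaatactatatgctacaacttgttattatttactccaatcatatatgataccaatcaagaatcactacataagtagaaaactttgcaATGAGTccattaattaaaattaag
KMD1, chr1:30241202-30241451, plus strand: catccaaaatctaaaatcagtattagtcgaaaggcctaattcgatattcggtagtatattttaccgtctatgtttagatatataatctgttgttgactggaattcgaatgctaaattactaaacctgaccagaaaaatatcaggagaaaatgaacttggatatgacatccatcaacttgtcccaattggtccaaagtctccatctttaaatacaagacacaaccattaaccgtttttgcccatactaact
SIP2, chr3:21293172-21293421, minus strand: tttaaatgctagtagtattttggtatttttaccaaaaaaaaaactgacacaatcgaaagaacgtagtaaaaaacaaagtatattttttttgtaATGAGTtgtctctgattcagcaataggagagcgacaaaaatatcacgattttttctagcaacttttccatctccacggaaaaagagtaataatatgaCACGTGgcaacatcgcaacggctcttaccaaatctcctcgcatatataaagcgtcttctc
AT1G67750, chr1:25401264-25401513, plus strand: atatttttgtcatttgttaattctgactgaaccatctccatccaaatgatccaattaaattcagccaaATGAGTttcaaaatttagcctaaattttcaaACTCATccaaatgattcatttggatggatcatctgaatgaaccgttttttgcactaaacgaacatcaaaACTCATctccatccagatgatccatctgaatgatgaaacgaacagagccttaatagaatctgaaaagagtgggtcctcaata
The ERD5 window holds 1 ACTCAT motif, 24 bases before the start, on the reverse strand. The SIP2 window holds 1 ACTCAT and 1 CACGTG, the AT1G67750 window 3 ACTCAT, and the KMD1 window neither. Counted on both strands, ACTCAT is present in 2209 of 18715 windows of tested protein-coding genes (11.8%), CACGTG in 1392 (7.44%) and the evening element AAATATCT in 924 (4.94%), and none of the 3 motifs can contain another. These matches describe the letters of the windows only.

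The 4 libraries with raised TOC1 were treated in 2 further ways. A fit with an added term for them called 97 genes, 55 with a positive and 42 with a negative interaction (0.287% and 0.219% of genes tested). Without these 4 libraries 97 of 19106 genes passed, 66 positive and 31 negative (0.345% and 0.162%). The 2 sets shared 46 genes, 47.4% of each, and 27 genes were in these 2 sets and in the DESeq2 set, 17 positive and 10 negative. Of these 27, only ERD5 also passed in edgeR's fit of the 4 groups alone, and the adjusted p-values below are from that fit. SIP2 and the other genes outside the lists were chosen after their values were seen. Among the genes described below the interaction without the 4 libraries kept its sign, apart from PYE.

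The 17 positive genes fell in wild type, with iron effects of -1.03 to -5.54 there and of 0.28 to -3.20 in clf. KMD1 (AT1G80440), a KISS ME DEADLY F-box protein that targets type-B response regulators and phenylalanine ammonia-lyase for breakdown, had 336, 279 and 297 CPM in clf on deficient medium and 379, 371 and 354 CPM in clf on sufficient medium. It had 106, 103 and 105 CPM in wild type on deficient medium, against 279, 268 and 240 CPM on sufficient medium. Its iron effect was -0.28 in clf (SE 0.09, edgeR adjusted p = 0.192) and -1.33 in wild type (SE 0.10, edgeR adjusted p = 2.11e-05), with an interaction of 1.05 (SE 0.13, edgeR adjusted p = 0.0853). Every deficient library of clf lay above every deficient library of wild type, and the level on sufficient medium was also higher in clf (0.49, SE 0.09, edgeR adjusted p = 0.0149).

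SIP2 (AT3G57520), an alkaline alpha-galactosidase of the raffinose synthase family, had 273, 291 and 271 CPM in clf on deficient medium and 229, 190 and 268 CPM in clf on sufficient medium. It had 91.8, 95.4 and 87.3 CPM in wild type on deficient medium and 178, 207 and 302 CPM on sufficient medium. It fell in wild type (-1.32, SE 0.18, edgeR adjusted p = 0.00182), was at 0.28 in clf (SE 0.18, edgeR adjusted p = 0.531), and had an interaction of 1.60 (SE 0.26, edgeR adjusted p = 0.177). GRP3S, a short glycine-rich protein, had an interaction of 1.02, the locus AT3G48390 1.72, AT5G22920 1.54 and the ACT-domain protein ACR9 1.12, and all 4 fell in wild type with clf effects between -0.14 and 0.04. Among the 17 windows of positive genes, ACTCAT was present in 4 (23.5%), CACGTG in 2 (11.8%) and AAATATCT in 1 (5.88%).

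**Figure D1:**
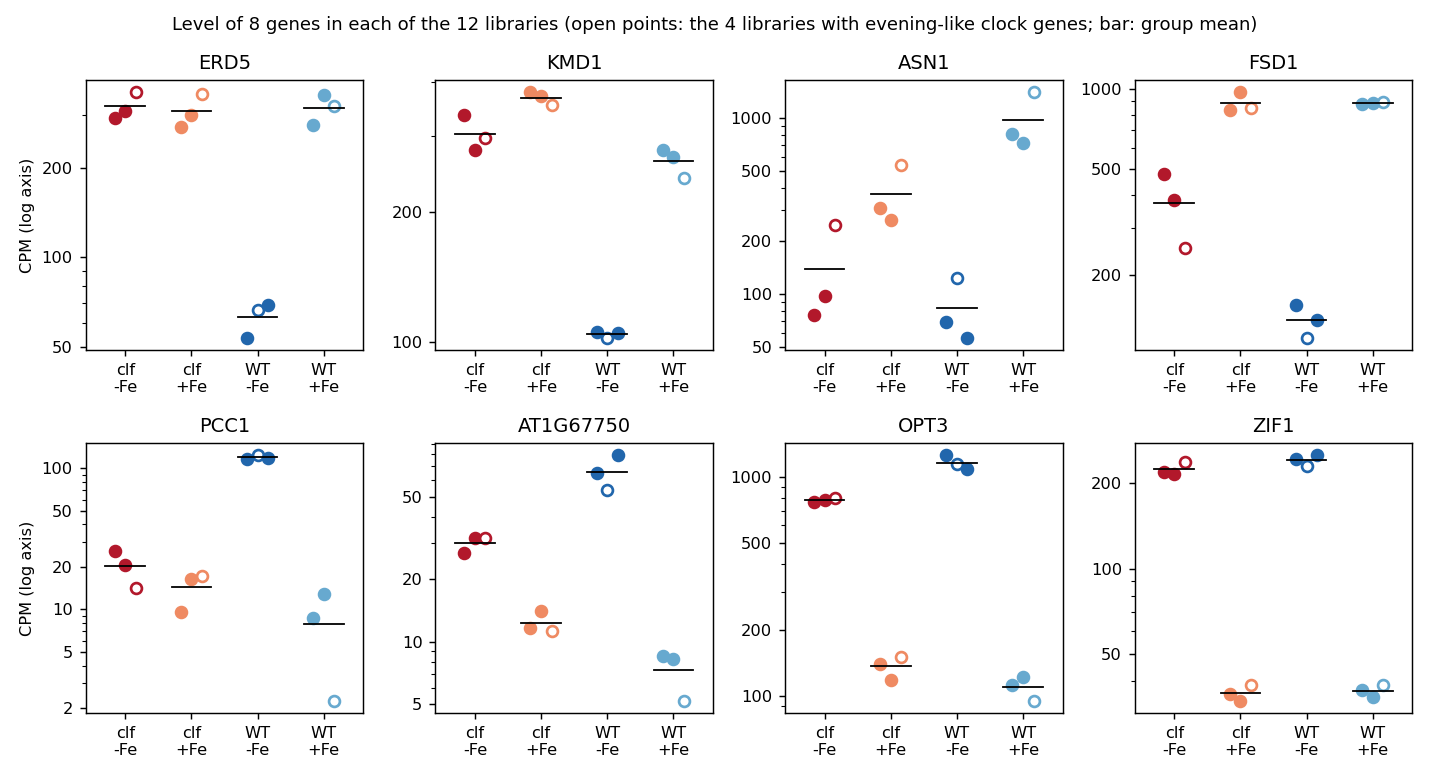
Level in CPM on a log axis of 8 genes in each library, by group (clf deficient, clf sufficient, wild type deficient, wild type sufficient), with a bar at the group mean and open points for the 4 libraries with raised TOC1. ERD5 is low in the 3 wild-type deficient libraries alone, at 53.7 to 69.1 CPM, while ZIF1 sits at 215 to 251 CPM in all 6 deficient libraries.

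The response to iron was smaller in clf for most genes that responded over both genotypes together. These genes were chosen by their mean iron effect, which does not use the difference between the genotypes. The choice can still favour 1 direction where the spread differs between genotypes or a left-out library makes the groups unequal. Of 2608 genes with a called mean effect (13.6%), 1340 were higher and 1268 lower. Of the 1340 genes higher on deficient medium (7.0% of those tested), 963 had a smaller iron effect in clf, or 71.9%, with a median of 0.52 in clf and 0.72 in wild type. Of the genes lower on deficient medium (6.62%), 1017 had a smaller effect in clf, or 80.2%, with medians of -0.41 in clf and -0.63 in wild type. Over all 19148 genes the effect was smaller in clf for 61.0%, and the median interaction was -0.01. Where the mean effect was at least 1 on the log2 scale, 216 of 275 higher genes (78.5%) and 192 of 238 lower genes (80.7%) were smaller in clf, with medians of 1.23 in clf and 1.93 in wild type, and -1.14 in clf and -1.72 in wild type. Without the 4 libraries with raised TOC1 the shares were 62.4% of 2468 higher and 69.9% of 2095 lower genes, and without clf deficient 3 alone they were 56.5% and 66.5%.

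The counts of called genes went the same way. Iron changed 291 genes in clf (1.52%), 144 higher and 147 lower (0.752% and 0.768%), and 1747 genes in wild type (9.12%), 882 higher and 865 lower (4.61% and 4.52%). The 240 genes called in both genotypes had the same direction in each, and 179 of them had the smaller effect in clf. The median spread of a gene within a group, as the SD of log2 CPM, was 0.22 in clf on either medium and 0.24 and 0.26 in wild type on deficient and sufficient medium. The difference in the number of calls between genotypes is not itself a test of the interaction.

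**Figure D2:**
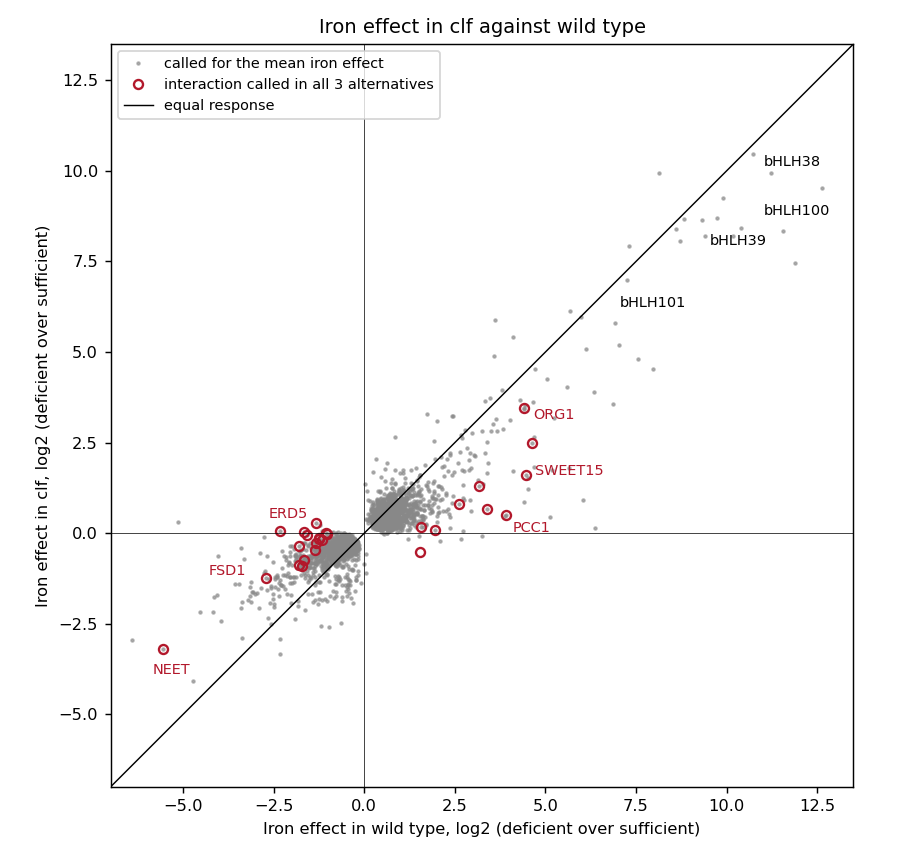
Log2 iron effect in clf (vertical axis) against wild type (horizontal axis) for the genes called for the mean iron effect, with the 27 genes whose interaction was called in all 3 alternatives ringed and the line of equal response drawn. Of the higher genes 71.9% and of the lower genes 80.2% have the smaller effect in clf, and the ringed genes lie on the smaller side for clf.

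Among the iron regulators, the size of the iron effect was smaller in clf for 10 of the 13 tested members, beside 61.0% over all genes. For all genes higher on deficient medium by the mean effect the share was 71.9%, and 78.5% where that effect was at least 1. IMA1, IMA2, IMA3, BTSL1 and BTSL2 were left off this list because the reference names their loci otherwise. In clf 6 rose and 0 fell, against 0.752% and 0.768% of all genes. In wild type 8 rose and 1 fell, against 4.61% and 4.52%. The median iron effect was 1.93 in clf and 2.57 in wild type, and 2.60 and 2.66 without the 4 libraries with raised TOC1. At an unadjusted p under 0.05, 0 members had a positive and 2 a negative interaction, against 3.43% and 3.96% of all genes. One was bHLH100, a subgroup Ib bHLH factor that drives the iron deficiency response, with 146, 166 and 225 CPM in clf on deficient medium against 0.44, 0.23 and 0.05 CPM on sufficient medium. In wild type it had 310, 314 and 289 CPM on deficient medium, against 0.06, 0.07 and 0.0 CPM on sufficient medium. The deficient libraries of clf all lay below those of wild type, and the sufficient libraries rested on 13 counts in clf and 2 counts in wild type. The log2 ratio of summed counts was 9.59 in clf (95% exact interval 8.82 to 10.5) and 12.81 in wild type (95% exact interval 10.95 to 15.85), intervals that cover counting error only.

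The other was BTS (BRUTUS), the hemerythrin-domain E3 ligase that restrains the response. It had 733, 770 and 910 CPM in clf on deficient medium and 102, 79.2 and 116 CPM on sufficient medium. It had 1365, 1117 and 1082 CPM in wild type on deficient medium and 103, 97.1 and 105 CPM on sufficient medium. Its deficient libraries were lower in clf throughout, and the sufficient ones overlapped. BTS rose in both genotypes, by 3.02 in clf (SE 0.16, edgeR adjusted p = 5.92e-06) and 3.55 in wild type (SE 0.16, edgeR adjusted p = 1.41e-06), and the interaction was -0.53 (SE 0.21, edgeR adjusted p = 0.639). PYE (POPEYE), a bHLH repressor, rose by 2.85 in clf (SE 0.32, edgeR adjusted p = 0.00145) and 2.79 in wild type (SE 0.32, edgeR adjusted p = 0.000567).

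Genes of iron acquisition, whose main site of action is the root, had medians of 1.73 in clf and 1.74 in wild type over 12 members. In clf 2 rose and in wild type 6 rose, against 0.752% and 4.61% of all genes. IRT1, the main iron importer, had an iron effect of 2.71 in clf (SE 0.72, edgeR adjusted p = 0.0983) and 2.68 in wild type (SE 0.71, edgeR adjusted p = 0.0409), with an interaction of 0.03 (SE 0.94). The member with the smallest interaction p was AHA2, a plasma membrane proton pump, at 0.00 in clf (SE 0.14, edgeR adjusted p = 0.997) and 0.54 in wild type (SE 0.14, edgeR adjusted p = 0.0346), with an interaction of -0.54 (SE 0.19, edgeR adjusted p = 0.619).

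In iron transport, members that rise on deficient medium and members that fall on it were both called. Of 21 tested, 5 rose and 1 fell in clf, against 0.752% and 0.768% of all genes, and 7 rose and 4 fell in wild type, against 4.61% and 4.52%. The interaction was positive in 6 and negative in 15, against 48.8% and 51.2% of all genes. At an unadjusted p under 0.05, 2 had a positive and 4 a negative interaction, against 3.43% and 3.96% of all genes. OPT3, the phloem iron transporter, had 767, 782 and 799 CPM in clf on deficient medium and 141, 119 and 152 CPM on sufficient medium. In wild type it had 1251, 1143 and 1088 CPM on deficient medium and 113, 123 and 95.1 CPM on sufficient medium. The 3 deficient libraries of clf lay below the 3 of wild type, and the sufficient libraries overlapped. OPT3 rose by 2.51 in clf (SE 0.13, edgeR adjusted p = 4.11e-06) and 3.40 in wild type (SE 0.13, edgeR adjusted p = 3.45e-07), with an interaction of -0.88 (SE 0.17, edgeR adjusted p = 0.262), and on deficient medium it was lower in clf (-0.57, SE 0.12, edgeR adjusted p = 0.0193). ZIF1, a vacuolar transporter of nicotianamine, is given beside it. ZIF1 had 219, 215 and 239 CPM in clf on deficient medium and 36.1, 34.0 and 38.7 CPM on sufficient medium, and 244, 230 and 251 CPM in wild type on deficient medium and 37.2, 35.2 and 38.8 CPM on sufficient medium. Both genotypes overlapped on both media, and the interaction was -0.08 (SE 0.13, edgeR adjusted p = 0.949).

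NRAMP4, which releases iron from the vacuole, rose by 2.35 in clf and 2.83 in wild type (interaction -0.48, SE 0.18, edgeR adjusted p = 0.62), and the mitochondrial ferric reductase FRO3 rose by 3.69 in clf and 4.30 in wild type (interaction -0.61, SE 0.28, edgeR adjusted p = 0.675). FRO3 overlaps AT1G23010 on the other strand, and its interaction was -0.38 without clf sufficient 3. NAS1, a nicotianamine synthase, was at 0.44 in clf (SE 0.26, edgeR adjusted p = 0.493) and rose by 1.31 in wild type (SE 0.27, edgeR adjusted p = 0.0139). The 2 members with a positive interaction at an unadjusted p under 0.05 had a lower level on deficient medium. YSL1, a metal-nicotianamine transporter, was at -1.26 in clf (SE 0.27, edgeR adjusted p = 0.0507) and -2.64 in wild type (SE 0.30, edgeR adjusted p = 0.000479). NAS3, another nicotianamine synthase, was at -1.40 in clf (SE 0.41, edgeR adjusted p = 0.133) and -3.45 in wild type (SE 0.47, edgeR adjusted p = 0.00161).

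Genes for iron storage and iron-containing proteins had the clearest shift among the iron lists. Of 13 tested, 12 had a positive interaction, against 48.8% of all genes, and 7 had it at an unadjusted p under 0.05, against 3.43%. In clf 6 fell and in wild type 8 fell, against 0.768% and 4.52% of all genes. The median iron effect was -1.25 in clf and -2.18 in wild type, and -1.07 and -1.91 without the 4 libraries with raised TOC1. Among the genes lower on deficient medium over all, 80.2% were also smaller in clf.

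FSD1, the plastid and cytosolic iron superoxide dismutase, had 480, 383 and 254 CPM in clf on deficient medium and 834, 974 and 849 CPM on sufficient medium. In wild type it had 155, 117 and 136 CPM on deficient medium and 876, 888 and 896 CPM on sufficient medium. On sufficient medium the genotypes overlapped, and on deficient medium all 3 clf libraries lay above all 3 of wild type. FSD1 fell in clf by 1.25 (SE 0.20, edgeR adjusted p = 0.0135) and in wild type by 2.71 (SE 0.21, edgeR adjusted p = 3.61e-05), with an interaction of 1.46 (SE 0.28, edgeR adjusted p = 0.254). NEET, an iron-sulfur protein of the CDGSH family, had 9.17, 5.97 and 4.36 CPM in clf on deficient medium and 63.4, 73.1 and 42.1 CPM on sufficient medium. It had 1.36, 0.94 and 1.00 CPM in wild type on deficient medium and 42.0, 48.9 and 64.1 CPM on sufficient medium. NEET showed the same order of groups as FSD1, with an iron effect of -3.20 in clf and -5.54 in wild type and an interaction of 2.34 (SE 0.42, edgeR adjusted p = 0.201).

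The ferritins, plastid shells that hold iron, had the same sign. FER1 had 21.0, 14.1 and 11.9 CPM in clf on deficient medium and 72.5, 105 and 36.1 CPM on sufficient medium. It had 5.30, 4.93 and 4.58 CPM in wild type on deficient medium and 62.9, 61.1 and 143 CPM on sufficient medium. FER1 was higher in clf in every deficient library, with an iron effect of -2.18 in clf and -4.17 in wild type and an interaction of 1.99 (SE 0.58, edgeR adjusted p = 0.511). FER4 was at -2.07 in clf and -3.41 in wild type (interaction 1.35, SE 0.41, edgeR adjusted p = 0.511), and the aconitase ACO3 at -0.97 in clf and -1.78 in wild type (interaction 0.81, SE 0.34, edgeR adjusted p = 0.651). FER1 overlaps AT5G01595 on the other strand and FER4 overlaps AT2G40290 on its own strand, so reads of these pairs may have been split between them. The value of FER3, 2.22, rested on wild type sufficient 3: it was 0.38 without that library and 0.47 without the 4 libraries with raised TOC1. Without those 4, the FER1 interaction was 1.31, and those of FER4, NEET and FSD1 were 1.197, 2.08 and 1.53.

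**Figure D3:**
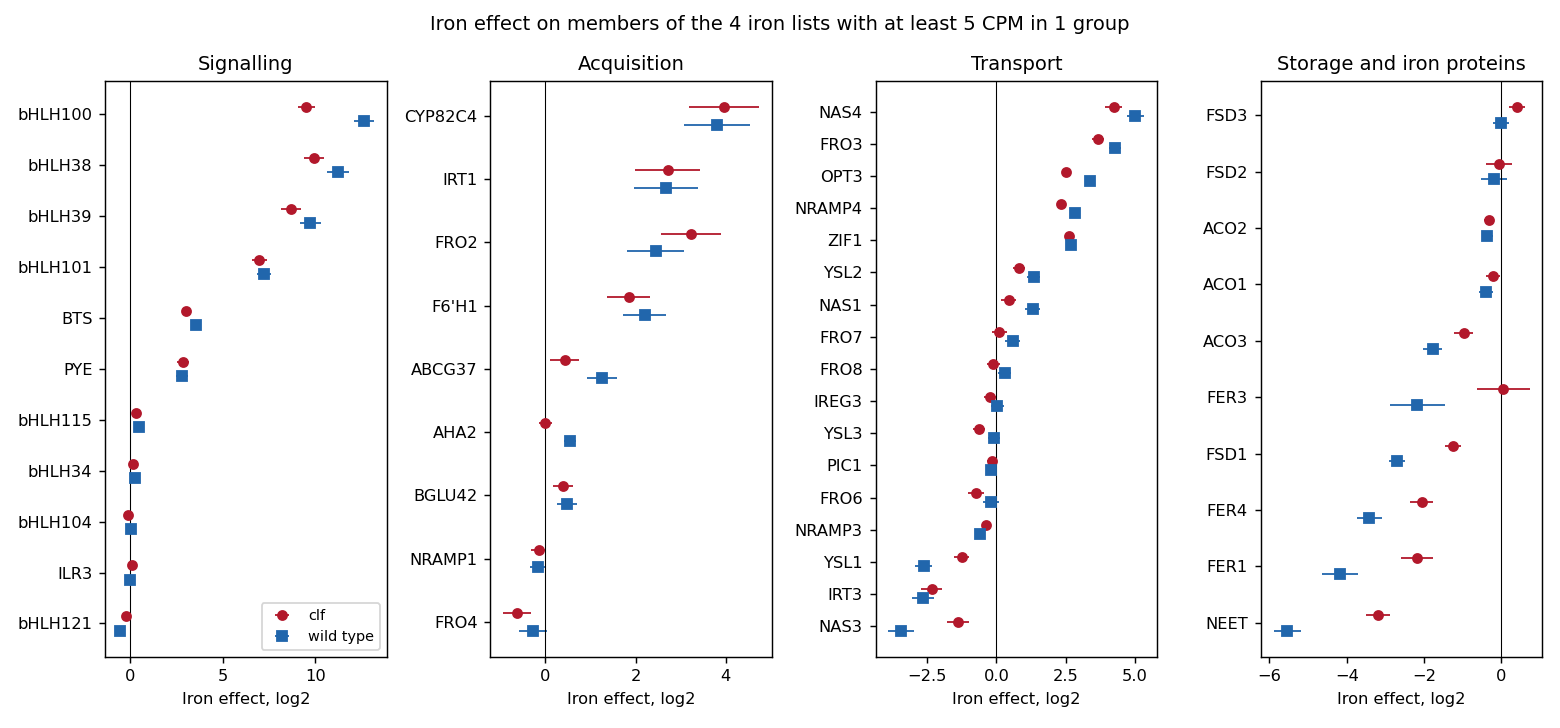
Log2 iron effect, with its standard error, in clf (circles) and wild type (squares) for members of the 4 iron lists that reach 5 CPM in some group. BTS and OPT3 have interactions of -0.53 and -0.88, and FSD1, FER1, FER4 and NEET lie nearer 0 in clf, by 1.46, 1.99, 1.35 and 2.34. The bHLH100 value in wild type rests on 2 counts on sufficient medium.

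Genes that mark carbon starvation and branched-chain amino acid breakdown, which leaves raise when sugar runs short, had lower levels on deficient medium in wild type and less so in clf. Of 30 tested members, KMD1 described above among them, 0 fell in clf and 16 fell in wild type, where 4.52% of all genes fell. The interaction was positive in 27 members, against 48.8% of all genes, and 10 had an unadjusted p under 0.05 with a positive and 0 with a negative interaction, against 3.43% and 3.96%. The median iron effect was -0.42 in clf and -1.29 in wild type, and -0.69 and -1.35 without the 4 libraries with raised TOC1. The list was drawn up with earlier results on these libraries known, so its counts describe the list and test nothing. Of all genes lower on deficient medium by the mean effect, 80.2% had the smaller effect in clf. The group S1 factors bZIP1, bZIP2, bZIP11 and bZIP53, which act on several of these genes, are listed at 0 in all 12 libraries and were not measured.

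The summed level of the list was 2857, 2833 and 5926 CPM in clf on deficient medium and 4790, 4659 and 7363 CPM on sufficient medium. In wild type it was 1900, 2786 and 1975 CPM on deficient medium and 5721, 5717 and 8540 CPM on sufficient medium. In every group the highest sum was in the library with raised TOC1, and the part of that difference in the interaction was not tested. ASN1 (DARK INDUCIBLE 6), a glutamine-dependent asparagine synthetase, had 75.9, 96.8 and 245 CPM in clf on deficient medium and 307, 262 and 541 CPM on sufficient medium, and 69.0, 123 and 56.2 CPM in wild type on deficient medium and 809, 720 and 1409 CPM on sufficient medium. The lowest wild-type sufficient library exceeded every clf library, while on deficient medium the genotypes overlapped. Its iron effect was -1.41 in clf (SE 0.49, edgeR adjusted p = 0.2) and -3.57 in wild type (SE 0.53, edgeR adjusted p = 0.00258), with an interaction of 2.16 (SE 0.68, edgeR adjusted p = 0.533). ASN1 overlaps AT3G47341 on the other strand, and whether strand was used in counting is not stated. Without the 4 libraries with raised TOC1 its interaction was 1.89.

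The class II trehalose phosphate synthase genes TPS8, TPS9 and TPS11, which are known to be repressed by sugar, had the same sign. TPS10, also on the list, is not described here. TPS9 was at 0.04 in clf and -0.71 in wild type (interaction 0.75, SE 0.18, edgeR adjusted p = 0.388), TPS11 at -0.48 and -1.79 (interaction 1.31, SE 0.38, edgeR adjusted p = 0.501), and TPS8 at -0.18 and -0.80 (interaction 0.62, SE 0.19, edgeR adjusted p = 0.521). SEN1 (DARK INDUCIBLE 1), a dark-induced senescence marker, was at -0.45 in clf and -1.94 in wild type (interaction 1.49, SE 0.51, edgeR adjusted p = 0.594), and its interaction was 0.93 without clf deficient 3. All 4 fell in wild type. Among the 30 windows before the starts of these genes ACTCAT was present in 2 (6.67%), CACGTG in 3 and AAATATCT in 2 (6.67%).

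**Figure D4:**
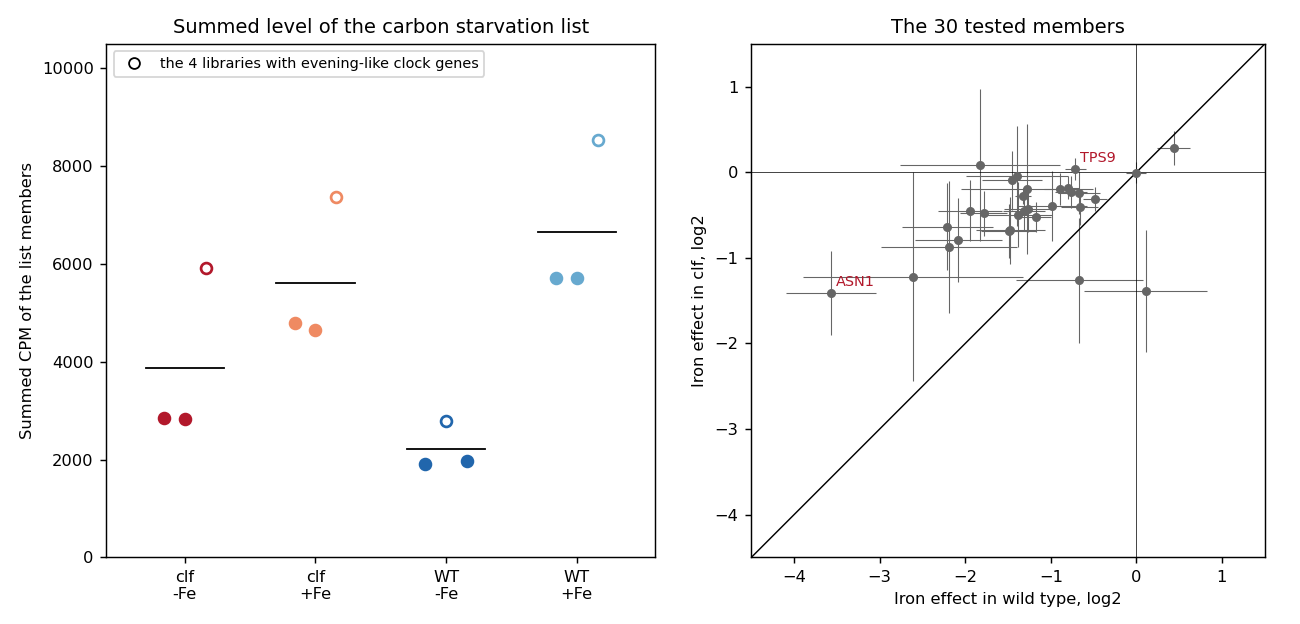
Left, summed CPM of the carbon starvation list in each library by group, with a bar at the mean and open points for the libraries with raised TOC1. Right, log2 iron effect of its 30 tested members in clf against wild type with standard errors. 27 members lie above the line of equal response.

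In the sugar transport and starch list, 12 of 19 members had a negative and 7 a positive interaction, against 51.2% and 48.8% of all genes. At an unadjusted p under 0.05, 2 were negative and 0 positive, against 3.96% and 3.43% of all genes. SWEET15 (SAG29), a sucrose exporter tied to leaf senescence, had 18.6, 21.4 and 18.7 CPM in clf on deficient medium and 10.1, 4.89 and 4.22 CPM on sufficient medium. It had 89.8, 41.0 and 77.8 CPM in wild type on deficient medium and 2.98, 3.92 and 2.59 CPM on sufficient medium. All clf libraries on deficient medium lay below all of wild type, and on sufficient medium all clf libraries lay above. SWEET15 was at 1.61 in clf (SE 0.35, edgeR adjusted p = 0.0526) and rose by 4.46 in wild type (SE 0.40, edgeR adjusted p = 9.99e-05), with an interaction of -2.85 (SE 0.50, edgeR adjusted p = 0.198). APL3, a large subunit of the starch enzyme ADP-glucose pyrophosphorylase, was at -0.22 in clf (edgeR adjusted p = 0.876) and rose by 1.78 in wild type (edgeR adjusted p = 0.0205), with an SE of the interaction of 0.55.

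Of 41 photosystem and electron transport genes tested, 20 fell in clf and 34 fell in wild type, against 0.768% and 4.52% of all genes, and 0 passed as higher in either. The size of the effect was smaller in clf for 38, beside 61.0% of all genes. Among genes lower on deficient medium by the mean effect that share was 80.2%. The median was -0.65 in clf and -0.83 in wild type, and 4 members had a positive and 0 a negative interaction at an unadjusted p under 0.05, against 3.43% and 3.96% of all genes. FD2, the main leaf ferredoxin, had 843, 743 and 482 CPM in clf on deficient medium and 1640, 2043 and 1734 CPM on sufficient medium. It had 457, 382 and 480 CPM in wild type on deficient medium and 1979, 2116 and 2588 CPM on sufficient medium. Every clf library on deficient medium lay above every wild-type one, though clf deficient 3 exceeded the highest wild-type library narrowly. The FD2 effect was -1.39 in clf and -2.34 in wild type, with an interaction of 0.95 (SE 0.28, edgeR adjusted p = 0.511). The photosystem I subunits PSAF, PSAN and PSAD2 had interactions of 0.96, 0.73 and 0.46, and PSAN and PSAD2 overlap neighbouring genes.

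Chlorophyll and heme synthesis had a median of -0.29 in clf and -0.40 in wild type over 26 genes. Of these, 3 fell in clf and 10 in wild type, against 0.768% and 4.52% of all genes. HEMA1, the glutamyl-tRNA reductase that starts tetrapyrrole synthesis, had 277, 210 and 126 CPM in clf on deficient medium and 1243, 1163 and 872 CPM on sufficient medium. It had 130, 65.2 and 89.2 CPM in wild type on deficient medium and 1490, 1477 and 1479 CPM on sufficient medium. All wild-type sufficient libraries exceeded those of clf, and on deficient medium clf deficient 3 lay within the wild-type range. HEMA1 fell in clf by 2.42 (SE 0.31, edgeR adjusted p = 0.00341) and in wild type by 3.97 (SE 0.33, edgeR adjusted p = 5.82e-05), with an interaction of 1.55 (SE 0.41, edgeR adjusted p = 0.465).

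Among 13 genes of oxidative stress, 7 had a positive and 6 a negative interaction, against 48.8% and 51.2% of all genes. At an unadjusted p under 0.05, 2 were positive, against 3.43% of all genes. They were SAPX, the stromal ascorbate peroxidase, at -1.62 in clf and -3.06 in wild type (interaction 1.44, SE 0.38, edgeR adjusted p = 0.464), and the catalase CAT3 at -1.50 and -2.86 (interaction 1.36, SE 0.49, edgeR adjusted p = 0.619). Both are heme enzymes. NYC1, a chlorophyll b reductase from the senescence list, was at -1.74 in clf and -3.15 in wild type (interaction 1.41, SE 0.40, edgeR adjusted p = 0.5). CSD1, a copper/zinc superoxide dismutase, had the other sign, at -2.56 in clf (SE 0.36, edgeR adjusted p = 0.00632) and -1.20 in wild type (SE 0.34, edgeR adjusted p = 0.0533), with an interaction of -1.37 (SE 0.48, edgeR adjusted p = 0.614). It overlaps AT1G08840 on the other strand.

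The 10 genes with a negative interaction in all 3 alternatives had a higher level in wild type on deficient medium and a smaller difference in clf. PCC1 (AT3G22231), a small membrane protein named for pathogen and circadian control, had 25.9, 20.6 and 14.2 CPM in clf on deficient medium and 9.51, 16.4 and 17.3 CPM on sufficient medium. It had 116, 123 and 118 CPM in wild type on deficient medium and 8.62, 12.9 and 2.24 CPM on sufficient medium. The wild-type deficient libraries stood apart, and the 2 clf groups overlapped. PCC1 was at 0.49 in clf (SE 0.46, edgeR adjusted p = 0.712) and rose by 3.91 in wild type (SE 0.52, edgeR adjusted p = 0.00136), with an interaction of -3.42 (SE 0.67, edgeR adjusted p = 0.273). Its neighbour AT3G22235 had 46.7, 39.3 and 30.6 CPM in clf on deficient medium and 17.5, 26.9 and 29.4 CPM on sufficient medium, against 196, 165 and 188 CPM in wild type on deficient medium and 18.0, 25.1 and 8.95 CPM on sufficient medium. The order of its groups was that of PCC1, and its interaction was -2.73 (SE 0.46, edgeR adjusted p = 0.177). Without the 4 libraries with raised TOC1 the interaction was -2.60 for PCC1 and -2.20 for AT3G22235.

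PCC1 and AT3G22235 lie 1 after the other on the minus strand of chromosome 3, from 7845823 to 7846833 and from 7854419 to 7855814. Their 250 bases before the start share long identical runs, printed in capitals where a run of at least 20 bases is in both windows.
PCC1, chr3:7846834-7847083, minus strand: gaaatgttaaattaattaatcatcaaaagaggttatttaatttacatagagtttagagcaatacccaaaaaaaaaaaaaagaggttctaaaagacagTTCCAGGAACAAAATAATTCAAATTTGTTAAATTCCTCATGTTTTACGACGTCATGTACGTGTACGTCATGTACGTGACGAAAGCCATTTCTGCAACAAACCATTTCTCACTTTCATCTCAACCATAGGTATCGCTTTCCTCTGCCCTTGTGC
AT3G22235, chr3:7855815-7856064, minus strand: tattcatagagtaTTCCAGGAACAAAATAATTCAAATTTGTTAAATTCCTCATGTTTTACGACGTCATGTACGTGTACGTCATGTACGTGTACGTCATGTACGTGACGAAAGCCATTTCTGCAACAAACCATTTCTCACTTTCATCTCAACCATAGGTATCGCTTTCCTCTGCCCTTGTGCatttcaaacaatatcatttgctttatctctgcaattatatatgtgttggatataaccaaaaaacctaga
The shared runs cover 153 bases (61.2%) of the PCC1 window and 168 (67.2%) of the AT3G22235 window. The longest, of 105 bases, is present in 2 of the 18715 windows. Within the genes, 29.5% of the 50-base words of PCC1 are found in AT3G22235 and 21.1% of those of AT3G22235 in PCC1, so reads may have been shared between them and their values are not independent.

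AT1G67750, a pectate lyase family member, had 26.8, 31.6 and 31.6 CPM in clf on deficient medium and 11.6, 14.04 and 11.2 CPM on sufficient medium. It had 65.0, 53.8 and 79.1 CPM in wild type on deficient medium and 8.56, 8.26 and 5.18 CPM on sufficient medium. It rose in both genotypes, by 1.29 in clf (SE 0.20, edgeR adjusted p = 0.0124) and 3.17 in wild type (SE 0.21, edgeR adjusted p = 1.33e-05), and all 4 groups were apart, with an interaction of -1.88 (SE 0.28, edgeR adjusted p = 0.159). ORG1, a plastid fibrillin-family protein named as an OBP3-responsive gene, rose by 3.46 in clf and 4.41 in wild type (interaction -0.95, SE 0.20, edgeR adjusted p = 0.295). MIPS2, a myo-inositol phosphate synthase, was at -0.52 in clf (edgeR adjusted p = 0.539) and rose by 1.54 in wild type (edgeR adjusted p = 0.0208). The expansin EXPA5 was at 0.18 in clf and rose by 1.57 in wild type (edgeR adjusted p = 0.00134). GMI1, an SMC-hinge protein of DNA repair, was at 0.10 in clf and rose by 1.95 in wild type (edgeR adjusted p = 0.0017), and on sufficient medium it was higher in clf (2.41, SE 0.27, edgeR adjusted p = 0.00102). MIPS2 and GMI1 overlap genes on the other strand. Of the 10 windows, 2 held ACTCAT, 2 CACGTG and 1 AAATATCT.

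In the jasmonate and wounding list the median iron effect was -0.18 in clf and -0.36 in wild type. Of its 13 members, 6 had a positive and 7 a negative interaction, against 48.8% and 51.2% of all genes. At an unadjusted p under 0.05, 0 were positive and 3 negative, against 3.43% and 3.96% of all genes. VSP1, a vegetative storage protein induced by jasmonate, had 17.0, 10.6 and 15.1 CPM in clf on deficient medium and 27.3, 40.9 and 36.9 CPM on sufficient medium. It had 2.65, 3.24 and 3.34 CPM in wild type on deficient medium and 3.59, 3.45 and 3.78 CPM on sufficient medium. The clf libraries lay above those of wild type on both media. The gene fell in clf by 1.298 (SE 0.20, edgeR adjusted p = 0.0105), against -0.23 in wild type (SE 0.21, edgeR adjusted p = 0.557), with an interaction of -1.07 (SE 0.28, edgeR adjusted p = 0.464). VSP2 had an iron effect of -0.998 in clf (edgeR adjusted p = 0.00726) and -0.42 in wild type (edgeR adjusted p = 0.1). CORI3, a coronatine-induced cystine lyase, was at 0.04 in clf and rose by 0.94 in wild type (edgeR adjusted p = 0.0425).

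The aliphatic glucosinolate list, of sulfur-rich defence compounds, had a median of 0.62 in clf and 1.01 in wild type over 17 members. CYP83A1 was at 0.42 in clf and rose by 0.99 in wild type (interaction -0.57, SE 0.21, edgeR adjusted p = 0.62), and the sulfotransferase SOT17 was at 0.87 in clf and rose by 1.52 in wild type (interaction -0.66, SE 0.27, edgeR adjusted p = 0.642). In the salicylic acid list the median was -0.18 in clf and 0.58 in wild type over 15 members. The interaction was positive in 1 and negative in 14, against 48.8% and 51.2% of all genes. At an unadjusted p under 0.05, 1 was positive and 2 negative, against 3.43% and 3.96% of all genes. Without the 4 libraries with raised TOC1 the medians of this list were 0.06 in clf and 0.22 in wild type. ICS1, the isochorismate synthase that makes salicylic acid, was at -0.36 in clf and 0.11 in wild type (interaction -0.46, SE 0.16, edgeR adjusted p = 0.578). Of the 24 genes of abscisic acid, drought and cold, 8 had a positive and 16 a negative interaction, against 48.8% and 51.2% of all genes. In this list 0 positive and 5 negative members had an unadjusted p under 0.05, against 3.43% and 3.96% of all genes.

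Anthocyanin and flavonoid genes had the widest gap of medians, -0.90 in clf and 2.82 in wild type over 10 members, and all 10 had a negative interaction, 6 at an unadjusted p under 0.05, against 3.96% of all genes. The levels were low and uneven within groups. DFR, dihydroflavonol reductase, had 0.54, 0.19 and 3.93 CPM in clf on deficient medium and 22.9, 0.82 and 1.75 CPM on sufficient medium, and 47.5, 7.14 and 3.13 CPM in wild type on deficient medium and 0.72, 0.88 and 1.54 CPM on sufficient medium. LDOX, the next enzyme, was likewise highest in clf sufficient 1 and wild type deficient 1, at 17.4 and 32.3 CPM. With each library left out in turn, the DFR interaction ran from -8.80 to -3.90, the value without clf sufficient 1. The root markers, with medians of -1.28 in clf and 0.44 in wild type, were at low levels in all groups. The interaction was negative in 10 of the 11 tested, 4 of them at an unadjusted p under 0.05. Of all genes, 51.2% had a negative interaction, and 3.96% had it at that p. Their summed level was lowest in clf on deficient medium, and its part in the negative interactions was not tested. In RNA of whole tissue, fewer cells of a type and less RNA per cell cannot be told apart. Of 17 Polycomb and trithorax genes and 21 clock genes, 0 had an unadjusted p under 0.05 for the interaction.

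**Figure D5:**
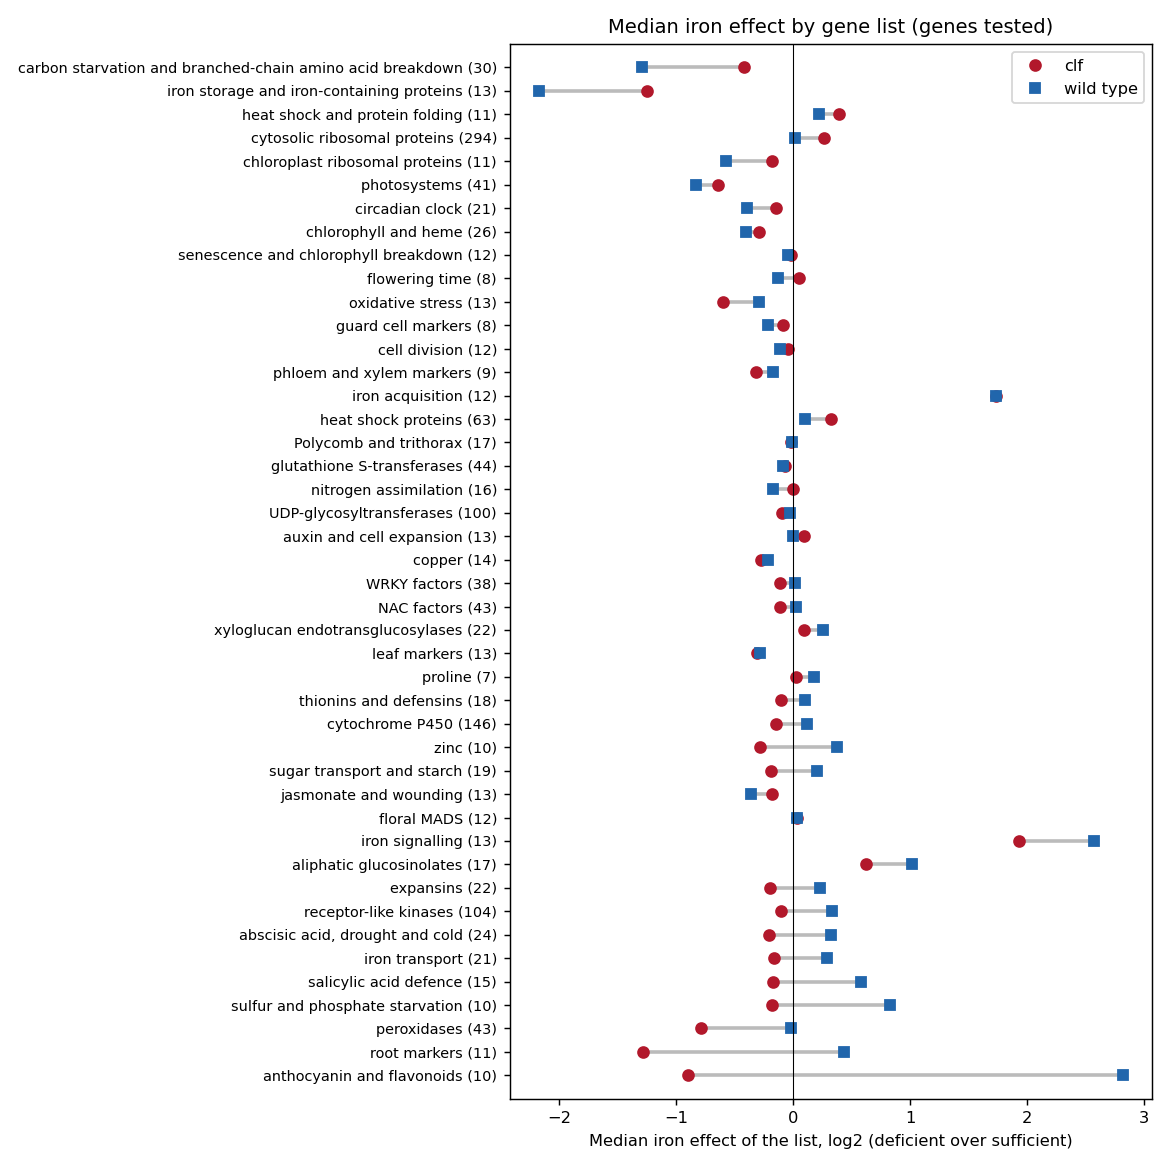
Median log2 iron effect of each gene list in clf (circles) and wild type (squares), with the number of genes tested in parentheses and lists ordered by the median interaction. Carbon starvation (-0.42 in clf, -1.29 in wild type) and iron storage (-1.25 and -2.18) lie at the top, and anthocyanin (-0.90 and 2.82) at the bottom.

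The 97 genes called with the term for the 4 libraries were sorted by whether the iron effect in each genotype reached 0.5 on the log2 scale. A response in wild type alone was found for 51, and 36 moved the same way in both genotypes with the smaller effect in clf. In 5 the response was in clf alone, among them the sulfate transporter SULTR1;2 and the glucosyltransferase UGT72E2. In 4 the effects had opposite signs (KCS2, MIPS2, LTP2 and AT5G37990), 1 reached 0.5 in neither, and 0 moved the same way with the larger effect in clf. At a size of 1 in place of 0.5 the classes held 62, 17, 6, 0, 12 and 0 genes in the same order. Leaving out the 4 libraries gave 32, 49, 3, 12, 1 and 0, so the balance between the first 2 classes turned with this choice.

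Among these 97 genes, both sets held genes with a called difference between genotypes on either medium. Of the 55 genes with a positive interaction, 43 were higher in clf on deficient medium and 0 lower (8.72% and 7.71% of all genes in that fit), whereas on sufficient medium 2 were higher and 20 lower (8.61% and 5.74%). Their median iron effect was -0.31 in clf and -1.6 in wild type. Of the 42 genes with a negative interaction, 25 were lower and 4 higher in clf on deficient medium, and 30 were higher and 1 lower on sufficient medium, with medians of 0.21 in clf and 1.55 in wild type. These comparisons share libraries with the interaction that chose the genes, so the counts describe the sets and test nothing.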

How the data were processed

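Poly(A) RNA libraries from 12 samples (4 groups of 3) were made with a stranded TruSeq kit, per the labels' protocols. The reads were aligned with TopHat2 to TAIR10, per the submitters' processing notes, and neither the counting tool nor its strand setting is given in the sources used here. The authors deposited raw counts per gene, which were used for all main results, and a table of FPKM values, which was used only in an alternative on log2(FPKM + 1). Counts of 32678 identifiers were read, of which 31912 had an entry in the TAIR10.1 RefSeq gene table and 766 did not. Genes were filtered with filterByExpr (minimum count 10, minimum total 15), scaled by TMM and tested with edgeR 4.0.16 in R 4.3.3, with quasi-likelihood F tests in a fit of 4 groups, Benjamini-Hochberg adjustment over 19148 genes and a threshold of 0.05. CPM values use the TMM-scaled library sizes. Totals of 16092041 to 29400813 counts per library make counting error small for all but the lowest genes.

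The comparison, the gene lists and the named genes were chosen with earlier results of these data known. Named genes were CLF and SWN, members of the 4 iron lists, genes called for the interaction with a group mean of at least 5 CPM (the 15 largest in each direction and the 10 smallest adjusted p in each class), and up to 4 members of each list with the smallest interaction p. PCC1, AT3G22235, AT1G67750, SIP2, GRP3S, AT3G48390, AT5G22920, ACR9, ORG1, MIPS2, GMI1, EXPA5 and the genes named in the classes were chosen after their values were seen. ASN1 and SEN1 are described although KMD1, TPS8, TPS9 and TPS11 of their list had a smaller interaction p. Of 550 list members, 532 were kept because the reference gives their locus that name or a synonym, and 18 were dropped. Dropped members present in the count table under another name included IMA1, IMA2, IMA3, BTSL1, BTSL2, S8H, MTP8 and COSY.

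The steps were tested on simulated counts. Alternatives were RLE scaling, no filter, a mean of at least 1 CPM, DESeq2 1.42.0, limma 3.58.1 on log2(FPKM + 1), the replicate number as a block, a term for or removal of the 4 libraries with raised TOC1, and each library left out. Replicate numbers were not taken as pairs: correlations of deviations between same-numbered libraries ran from -0.63 to 0.64. Libraries with raised TOC1 also correlated across numbers, as wild type deficient 2 and wild type sufficient 3 did at 0.715. The range therefore cannot show whether equal numbers pair samples.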

Additional observations from a re-analysis of the deposited data

Results flagged for a closer look

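The iron effect on ERD5 differed between the genotypes by the test of the difference itself: the interaction was 2.39 on the log2 scale (SE 0.20, edgeR adjusted p = 0.00357), with an iron effect of 0.06 in clf and -2.33 in wild type. The 3 deficient libraries of clf, at 295 to 359 CPM, lay above the 3 of wild type, at 53.7 to 69.1 CPM, and the value was 2.28 to 2.50 with each library left out.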

How the results depend on the processing

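The number of genes called for the interaction stayed at 1 positive and 0 negative with RLE scaling, without a filter, with a mean of at least 1 CPM, with limma on FPKM and in 11 of the 12 fits that left out a library. Over the 12 fits it was 1 to 3 positive and 0 to 0 negative: without wild type sufficient 3, KMD1 (1.11) and AT3G48390 (1.85) also passed. With the term for the 4 libraries it was 55 and 42, without them 66 and 31, and with DESeq2 56 and 38. The classes in the order used above, wild type alone, smaller in clf, clf alone, opposite and neither, held 51, 36, 5, 4 and 1 genes with the term, 32, 49, 3, 12 and 1 without the 4 libraries, and 53, 26, 2, 9 and 4 with DESeq2. Wild type alone held 1 to 3 genes with a library left out.

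Iron calls in clf were 938 higher and 803 lower with the term, 950 and 710 without the 4 libraries and 482 and 439 with DESeq2, and limma on FPKM gave 462 higher. In wild type they were 2165 and 1950 with the term, 1759 and 1471 without the 4 libraries and 2552 and 455 with limma on FPKM, and DESeq2 gave 1324 lower. With a library left out, clf calls ran from 46 to 265 higher and from 44 to 188 lower, and wild-type calls from 372 to 973 higher and from 476 to 955 lower. The clf count higher moved by over 1.5 times without any 1 of the 6 clf libraries (60, 49 and 265 without clf deficient 1, 2 and 3, and 67, 46 and 54 without clf sufficient 1, 2 and 3), without wild type deficient 3 (95) or without wild type sufficient 2 (91). The clf count lower did so without clf deficient 1 and 2 (73 and 46), clf sufficient 1, 2 and 3 (66, 44 and 65) or wild type sufficient 2 (88). The wild-type counts fell most without wild type deficient 1 (372 higher, 476 lower), deficient 3 (443, 507), sufficient 1 (476, 575) and sufficient 2 (399, 517). The share of higher genes with a smaller effect in clf was 62.4% without the 4 libraries and 56.5 to 78.7% with a library left out. The share of lower genes was 82.7% without a filter, 74.9% with the term, 69.9% without the 4 libraries, 76.9% with limma on FPKM and 66.5 to 85.3% with a library left out. The replicate block left the interaction at 1 and 0, with shares of 74.2% and 80.6%, and whether its numbers pair the samples is not known. The cause of these moves was not tested. Interactions near 0 changed sign for 3 named genes. With a library left out that of CLF ran from -0.336 to 0.033, of PYE from -0.418 to 0.342 and of IRT1 from -0.763 to 0.779. That of PYE was -0.087 without the 4 libraries and -0.114 with limma on FPKM, where that of IRT1 was -0.345. The other named genes kept their sign, and 74 further values passed the test under another setting and 2 with a library left out. The fit of the 4 groups had 8 residual degrees of freedom and a biological coefficient of variation of 0.31, and genes near 0 counts, as in the root marker and anthocyanin lists, have the widest errors.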

Other observations

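A further list held genes named by product as ribosomal proteins, without those named as plastid or mitochondrial. Organelle members named only by family may remain in it. Its median iron effect was 0.26 in clf and 0.02 in wild type. The interaction was positive in 260 of 294 members tested, against 48.8% of all genes. Of the 294, 32 had an unadjusted p under 0.05 with a positive and 0 with a negative interaction, against 3.43% and 3.96% of all genes. In clf 6 rose, and in wild type 10 rose and 18 fell, against 0.752%, 4.61% and 4.52% of all genes. All 11 tested genes named by product as plastid-type ribosomal proteins also had a positive interaction, 0 of them at an unadjusted p under 0.05. Their medians were -0.18 in clf and -0.57 in wild type.

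The interaction was negative in 87 of 104 receptor-like kinases, 35 of 43 peroxidases and 98 of 146 cytochrome P450 genes, beside 51.2% of all genes. Of the receptor-like kinases 0 were positive and 16 negative at an unadjusted p under 0.05, against the same shares of all genes, with medians of -0.11 in clf and 0.33 in wild type. Of the peroxidases 0 were positive and 8 negative at that p, with medians of -0.79 in clf and -0.02 in wild type, and of the cytochrome P450 genes 5 were positive and 15 negative at that p. The salicylic acid list summed to 171, 185 and 183 CPM in clf on deficient medium and 126, 140 and 395 CPM on sufficient medium, and to 209, 722 and 151 CPM in wild type on deficient medium and 142, 168 and 401 CPM on sufficient medium. In 3 of the 4 groups its highest library was the one with raised TOC1.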
